A study of Homo sapiens with 7 samples.

Results

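PIXUL-ChIP-seq of HCT116 cells, a human colorectal carcinoma line, was examined at 10 genes of the SOX family. The genes are SOX1, SOX2, SOX4, SOX7, SOX9, SOX10, SOX11, SOX12, SOX13 and SOX18, chosen by name from the 20162 protein-coding genes of the GENCODE 44 annotation on hg19. For each gene, every interval in 6 deposited peak lists that overlapped the gene body or the 20 kb on either side of it was taken. The lists cover H3K4me1, H3K4me3, H3K9Ac, H3K27me3, H3K36me3 and CTCF. All libraries came from the same line, for which the labels name no treatment, and each antibody gave 1 library from a single well (200000 cells in 100 μl, with 6 min of sonication). H3K27Ac was not analysed here. With 1 library per antibody there was no replicate error, so the values below are descriptions without a test, and counts of the 10 genes are set beside the share among all coding genes.

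SOX proteins are transcription factors that bind DNA through an HMG box related to that of SRY, and they are sorted into groups by the likeness of that box. Many of them set or keep the identity of progenitor cells. In the intestine, SOX9 is known from the stem and progenitor cells of the crypt base, where it is a target of Wnt signalling. H3K4me3 and H3K9Ac mark the starts of active genes, whereas H3K4me1 flanks active starts and also lies on enhancers away from them. H3K36me3 is laid down along transcribed gene bodies and H3K27me3 by the Polycomb machinery at silent developmental genes. CTCF, a zinc-finger protein, recognises a defined sequence at chromatin loop anchors and domain boundaries.

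A deposited interval carries its fold enrichment, a linear ratio over the background of the peak caller, and its −log10 q-value. The study's own limits are a q-value below 1e-03 with a fold enrichment above 2 for H3K4me1 and H3K27me3, and a q-value below 1e-10 with a fold enrichment above 5 for the other lists. An interval past these limits is called a peak below, and the others are named as deposited intervals that were not past the limits. Distances are counted from the transcription start site (TSS) of the canonical transcript in the direction of the gene, so that a negative distance lies upstream. The lists hold no read counts and the depth of each library is unknown, so the lack of a peak says only that none was called at this depth. Fold enrichments are set side by side within a list and not between lists. In the H3K27me3 list, the interval names did not carry the name of the cell line, which the names in the other 5 lists did, and the list was assigned to HCT116 by its record alone. H3K4me3 peaks lay at the TSS of 6 of 9 colon epithelium markers (EPCAM, CDH1, KRT8, KRT18, KRT19 and CDX2, but not CDX1, VIL1 or LGALS4) and of 1 of 8 markers of other cell types (COL1A1). Of all coding genes 59.1% had such a peak, so the first count was near the background.

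The 10 SOX genes fell into 5 with a fully marked start and 5 with no peak there at all. SOX4, SOX12, SOX13, SOX9 and SOX18 each carried H3K4me1, H3K4me3 and H3K9Ac peaks within 1 kb of the TSS. At each of the 5, peaks at the start also held an annotated start of a gene on the opposite strand, and the lists carry no strand. These neighbours were the long non-coding RNA genes ENSG00000283480 at SOX4, ENSG00000286572 at SOX13 and SOX9-AS1 at SOX9, and alternative starts of NRSN2-AS1 at SOX12 and of TCEA2 at SOX18. The signals of such a pair cannot be told apart here. SOX4, SOX12, SOX13, SOX9 and SOX18 were the same 5 genes for all 3 marks, against 43.1% of coding genes with the 3 marks together. Taken singly, the 5 of 10 stood beside 49.1% of coding genes for H3K4me1, 59.1% for H3K4me3 and 58.5% for H3K9Ac, so the count itself was near the background. SOX1, SOX2, SOX7, SOX10 and SOX11 had no peak of any of the 6 lists within 1 kb of the TSS, as did 33.9% of coding genes. No SOX gene had a peak at its TSS for CTCF (13.6% of coding genes), H3K27me3 (1.22%) or H3K36me3 (0.298%). H3K4me3 and H3K27me3 peaks together were found at the TSS of 0.382% of coding genes and of 0 of the 10.

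The gene bodies with 20 kb on either side held 100 deposited intervals, of which 55 were peaks. They were spread unevenly, with 14 peaks at SOX18, 12 at SOX13, 8 at SOX4, 7 at SOX12, 7 at SOX10, 5 at SOX9 and 2 at SOX2. H3K4me1 contributed 25 of the 55 peaks, and H3K4me3, H3K9Ac and CTCF contributed 10 each. In these windows 6 of the 10 genes had an H3K4me1 peak (76.4% of coding genes), an H3K4me3 peak (73.0%) and an H3K9Ac peak (72.2%). The sixth gene, SOX10, had them over the starts of neighbouring genes or away from any start. CTCF peaks were found in 7 of the windows, beside 72.5% of those of all coding genes. SOX1, SOX7 and SOX11 had no peak of any list in the window, a state shared with 9.78% of coding genes. SOX7 and SOX11 did not have even a deposited interval there, as was the case for 3.24% of coding genes. A window grows with its gene, from 42058 bp at SOX18 to 94629 bp at SOX13, and a longer window has more room for intervals. The counts and shares were not compared at like length.

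**Figure D1:**
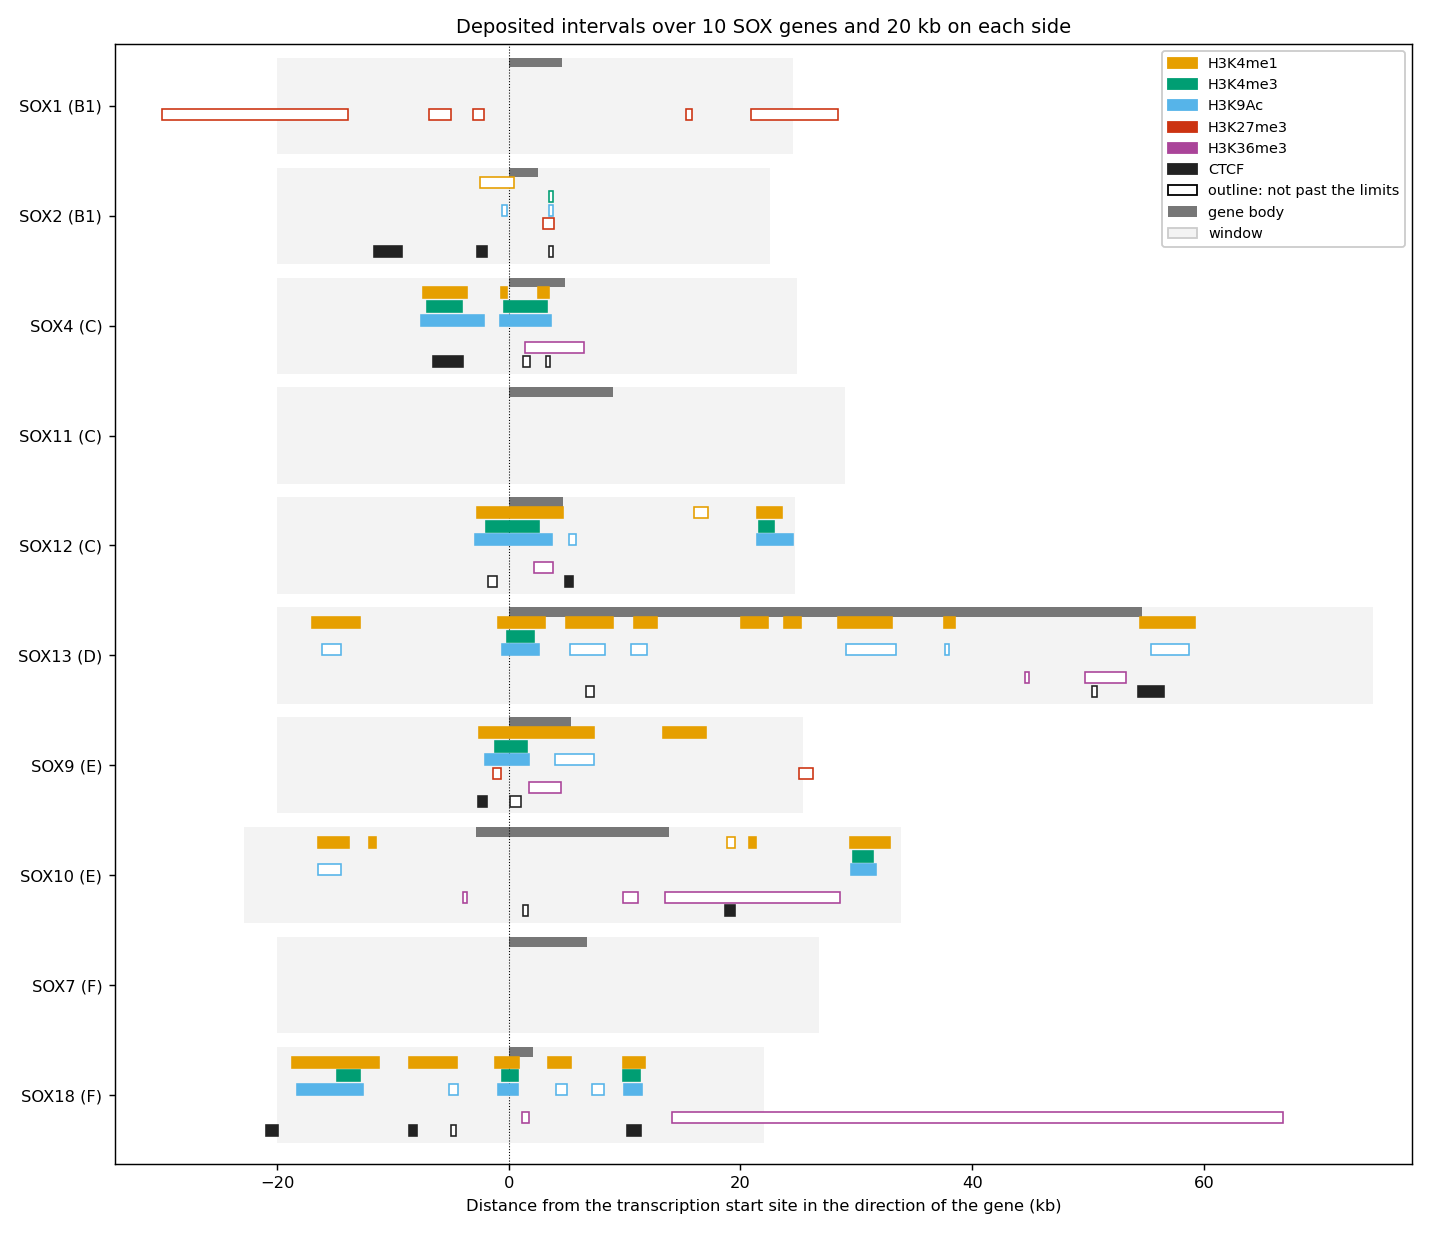
All 100 deposited intervals around the 10 SOX genes, drawn by distance from the TSS in kb in the direction of the gene, with 1 row per gene and 1 line per list. Filled bars are peaks past the limits, outlined bars are not past them, the dark bar is the gene body and the shaded area is the window. SOX4, SOX12, SOX13, SOX9 and SOX18 have filled H3K4me1, H3K4me3 and H3K9Ac bars at or beside the start, while SOX7 and SOX11 have no bar.

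**Figure D2:**
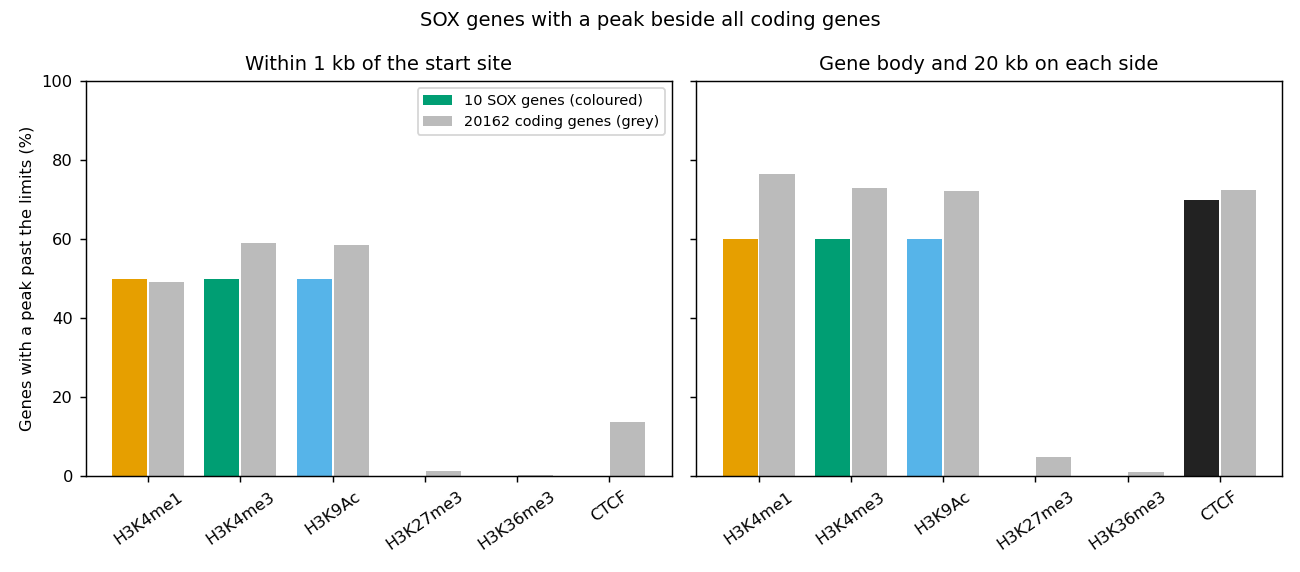
Share of genes with a peak past the limits, in percent, within 1 kb of the TSS and over the gene body with 20 kb on either side, for the 10 SOX genes (coloured bars) and for all 20162 coding genes (grey bars). At the TSS, the SOX genes stood at 5 of 10 for each of H3K4me1, H3K4me3 and H3K9Ac and at 0 for the other 3 lists.

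Group B1 is represented by SOX1 and SOX2, both single-exon genes known from neural progenitors, with SOX2 also known from pluripotent stem cells. SOX1 lies on chromosome 13 from 112721463 to 112726020 on the plus strand. Its window held 5 deposited intervals, all from the H3K27me3 list and none past the limits, and no interval of any other list. H3K27me3 as the only list with an interval in the window was found for 2.56% of coding genes. The widest of the 5 ran from −29928 to −13894 bp (fold enrichment 3.39, −log10 q-value 2.27). The next ones ran from −6876 to −4989 bp (fold enrichment 2.67) and from −3068 to −2147 bp (2.89). Downstream of the gene lay one from +15325 to +15801 bp (2.66) and one from +20885 to +28414 bp (3.08). The intervals thus stood on both sides of SOX1, and none overlapped the gene itself or its TSS. The nearest H3K4me1 peak lay 111689 bp upstream of the gene and the nearest H3K4me3 peak 515078 bp downstream.

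SOX2 lies on chromosome 3 from 181429713 to 181432224 on the plus strand, within an intron of the long non-coding RNA gene SOX2-OT. No peak lay within 1 kb of its TSS, but deposited intervals that were not past the limits did. An H3K4me1 interval of 2994 bp ran from −2510 to +483 bp, into the coding part of the single exon, at a fold enrichment of 3.69 (−log10 q-value 2.71). An H3K9Ac interval of 486 bp ran from −607 to −122 bp, at a fold enrichment of 3.19 (−log10 q-value 2.06), and did not reach the TSS. Both intervals held the start of the long non-coding RNA gene ENSG00000289435 on the opposite strand. The H3K4me1 interval also held an alternative start of SOX2-OT. The signals of these starts and of SOX2 cannot be told apart here. The H3K4me1 value missed the q-value limit of its list and the H3K9Ac value missed both limits. The H3K4me3 list had no interval within 1 kb of the TSS. The only peaks in the window were 2 CTCF peaks upstream. The nearer one ran from −2747 to −1878 bp with a fold enrichment of 17.1, higher than 90.0% of the CTCF peaks of the list. The other, of 2415 bp, ran from −11633 to −9219 bp with a fold enrichment of 12.4 and was wider than 97.5% of CTCF peaks. It held the start of the long non-coding RNA gene ENSG00000239381.

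The 3 members of group C, SOX4, SOX11 and SOX12, are single-exon genes with overlapping roles in the growth of embryonic tissues, and SOX4 is also widely described in carcinomas. SOX4 lies on chromosome 6 from 21593982 to 21598850 on the plus strand. Its H3K4me3 peak ran from −440 to +3302 bp with a fold enrichment of 28.6 (−log10 q-value 101). It reached past the coding part into the 3′ UTR, and its 3743 bp were wider than 95.1% of the H3K4me3 peaks at coding TSSs. The H3K9Ac peak covered nearly the same stretch, from −765 to +3623 bp, with a fold enrichment of 17.8. H3K4me1 was split into a pair of short peaks at the edges of the H3K4me3 peak. The upstream one ran from −670 to −146 bp (fold enrichment 4.84) and the downstream one from +2544 to +3474 bp (4.08), with none over the TSS between them.

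Upstream of SOX4 stood a separate block in which 4 lists had peaks together. It comprised H3K9Ac from −7593 to −2149 bp (fold enrichment 13.2), H3K4me1 from −7391 to −3587 bp (4.62), H3K4me3 from −7017 to −4033 bp (14.5) and CTCF from −6502 to −3911 bp (9.58). No annotated TSS fell inside these intervals, which lay within the antisense long non-coding RNA gene ENSG00000283480. Along the gene itself an H3K36me3 interval of 5123 bp ran from +1374 to +6496 bp. Its fold enrichment was 4.45 and its −log10 q-value 4.93. It was not past the limits, although that q-value was higher than 97.5% of those in the deposited H3K36me3 list.

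SOX12 lies on chromosome 20 from 306196 to 310868 on the plus strand and had the widest H3K4me3 and H3K9Ac peaks of the 5 marked starts. The H3K4me3 peak ran from −1947 to +2629 bp, and its 4577 bp were wider than 98.1% of H3K4me3 peaks at coding TSSs, with a fold enrichment of 24.7. The H3K9Ac peak of 6625 bp ran from −2896 to +3728 bp with a fold enrichment of 18.99, the highest of the SOX genes. The H3K4me1 peak of 7477 bp ran from −2757 to +4719 bp and so covered the whole gene, with a fold enrichment of 4.52. A CTCF peak lay just beyond the gene, from +4893 to +5579 bp, with a fold enrichment of 11.4. The other 3 peaks of the window, from +21398 bp onwards, belonged to the starts of NRSN2 and NRSN2-AS1.

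SOX11, known from developing neurons, lies on chromosome 2 from 5832516 to 5841517 on the plus strand. In contrast to SOX4 and SOX12, it had no deposited interval in its window of 49002 bp. The nearest deposited intervals were an H3K27me3 interval 54133 bp upstream of the gene (fold enrichment 2.49, not past the limits) and an H3K4me1 peak 63472 bp upstream (7.17). The nearest H3K4me3 peak lay 1163612 bp downstream. Peaks were thus called in the surroundings of SOX11, at a distance.

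SOX13 is the only gene of group D among the 10. SOX proteins of this group carry a coiled coil for dimer formation and have no transactivation domain of their own. With 54629 bp and 14 exons it is also the longest of the genes, on chromosome 1 from 204042243 to 204096871 on the plus strand. The H3K4me3 peak ran from −143 to +2166 bp with a fold enrichment of 25.6, and the H3K9Ac peak from −558 to +2588 bp with 13.7. Both began close to the TSS and extended into intron 1. The H3K4me1 peak at the start ran from −910 to +3160 bp with a fold enrichment of 4.75.

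Most of the H3K4me1 at SOX13 lay away from its canonical start. Of the 9 H3K4me1 peaks in the window, 6 were wholly inside intron 1, where they covered 15470 bp, with fold enrichments from 3.53 to 8.23. The highest ran from +4908 to +8980 bp and exceeded 97.6% of the H3K4me1 peaks of the list. It held the start of another annotated SOX13 transcript, at +5014 bp. The next, from +28436 to +33042 bp, had a fold enrichment of 7.44. Deposited H3K9Ac intervals with fold enrichments between 3.16 and 4.63 overlapped 6 of the 8 H3K4me1 peaks away from the start, and none of these H3K9Ac intervals was past the limits. At the end of the gene, H3K4me1 from +54459 to +59203 bp (fold enrichment 5.71) lay together with a CTCF peak from +54319 to +56524 bp (17.9). These overlapped the 3′ UTR in exon 14, and the H3K4me1 peak held the start of the long non-coding RNA gene ENSG00000261065. H3K36me3 was limited to deposited intervals of 385 and 3588 bp in the later part of the gene, with fold enrichments of 3.11 and 2.87.

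Group E contributed SOX9 and SOX10. SOX9 directs cartilage formation and testis development and is active in the intestinal crypt, whereas SOX10 is a regulator of neural crest, glia and melanocytes. SOX9 lies on chromosome 17 from 70117161 to 70122557 on the plus strand, with 3 exons. Its H3K4me3 peak ran from −1202 to +1533 bp. At a fold enrichment of 30.6 (−log10 q-value 107) it was the highest H3K4me3 peak of the SOX genes and exceeded 84.3% of those at coding TSSs. H3K9Ac ran from −2015 to +1736 bp with a fold enrichment of 16.0. A single H3K4me1 peak of 9941 bp, from −2542 to +7398 bp, covered the entire gene, and its width exceeded 96.1% of the H3K4me1 peaks at coding TSSs. A second H3K4me1 peak lay from +13343 to +16991 bp (fold enrichment 4.45), without an interval of H3K9Ac, H3K4me3 or CTCF.

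At the upstream border of the SOX9 peaks stood a CTCF peak from −2666 to −1845 bp with a fold enrichment of 18.0, the highest CTCF value of the SOX windows, with that at the end of SOX13 (17.9) close to it. It was followed by a small H3K27me3 interval from −1401 to −632 bp (fold enrichment 2.91, −log10 q-value 1.54), which was not past the limits although it overlapped the H3K4me3 peak. SOX9 was the only one of the 10 with a deposited H3K27me3 interval within 1 kb of its TSS, beside 9.60% of coding genes. An H3K36me3 interval from +1775 to +4548 bp (fold enrichment 3.57, −log10 q-value 3.54, not past the limits) took up 51.4% of the gene body.

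SOX10 lies on chromosome 22 from 38366693 to 38383429 on the minus strand, within POLR2F, a subunit gene of the RNA polymerases that is read from the other strand. Unlike SOX9 it had no peak at its TSS. The H3K4me3 peak (fold enrichment 25.1) and the H3K9Ac peak (12.3) of its window both lay about the starts of C22orf23 and POLR2F, from +29533 to +31732 bp in the wider case. Upstream of SOX10, however, H3K4me1 ran from −16464 to −13815 bp with a fold enrichment of 9.86. This was the highest H3K4me1 value of the SOX windows and exceeded 99.3% of the peaks of the list. A deposited H3K9Ac interval from −16460 to −14481 bp (fold enrichment 4.11, not past the limits) lay within the same stretch, which held no annotated TSS. Smaller H3K4me1 peaks followed from −12104 to −11495 bp (5.61) and from +20762 to +21308 bp (4.35). An H3K36me3 interval of 15129 bp from +13465 to +28593 bp reached the end of SOX10 and lay within POLR2F, and the lists carry no strand.

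Group F, SOX7 and SOX18, is known from blood vessel and lymphatic endothelium. SOX18 lies on chromosome 20 from 62678935 to 62680992 on the minus strand and is the shortest of the genes, with 2058 bp. Its start was marked, but with low values for H3K4me3 and H3K9Ac. An alternative start of TCEA2, on the plus strand, lay inside the same peaks at −197 bp. The H3K4me3 peak ran from −589 to +829 bp with a fold enrichment of 10.3, and only 5.9% of the H3K4me3 peaks at coding TSSs were lower. The H3K9Ac peak, from −914 to +838 bp, had a fold enrichment of 6.60, and 1.3% were lower. For H3K4me1 the order was the opposite, since the peak from −1223 to +874 bp had a fold enrichment of 6.25, the highest of the SOX starts, and exceeded 85.4% of the peaks at coding TSSs. The H3K9Ac −log10 q-value of 10.6 was just past the limit.

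The window of SOX18 held the most peaks of the 10. Downstream, from +9836 to +11734 bp, H3K4me1 (fold enrichment 8.62), H3K4me3 (9.69), H3K9Ac (15.1) and CTCF (16.6) peaks lay together within C20orf204. The H3K4me1 and H3K9Ac peaks of this cluster held an alternative start of C20orf204. The H3K9Ac value there was higher than at the SOX18 start itself. Between this cluster and the gene lay an H3K4me1 peak from +3427 to +5374 bp with a fold enrichment of 7.58. Upstream, the H3K4me3 peak with a fold enrichment of 26.0, from −14788 to −12844 bp, was at the canonical start of TCEA2, a transcription elongation factor gene. An H3K4me1 peak from −8619 to −4425 bp (3.89) held the start of the long non-coding RNA gene ENSG00000237371. Further CTCF peaks stood from −8634 to −7909 bp (10.9) and from −20918 to −19900 bp (10.7).

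The other gene of the group, SOX7, lies on chromosome 8 from 10581278 to 10588021 on the minus strand and had no deposited interval in its window of 46744 bp. The nearest ones were an H3K4me1 peak 31384 bp downstream of the gene (fold enrichment 7.79), an H3K36me3 interval 31826 bp upstream (2.64, not past the limits) and an H3K9Ac interval 32087 bp downstream (3.97, not past the limits). The nearest H3K4me3 peak lay 108324 bp upstream, with a fold enrichment of 26.9. Within group F the windows of SOX7 and SOX18 thus held 0 and 14 peaks, and within group C those of SOX11 and SOX4 held 0 and 8. Several of the SOX18 window peaks lay at starts of neighbouring genes, and the H3K4me3 and H3K9Ac peaks at its own start were low.

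Set against all coding genes with a peak at the TSS, the 5 marked SOX starts were not alike in fold enrichment. The median fold enrichment of H3K4me3 was 22.5 over 11924 coding genes, and SOX9, SOX4, SOX13 and SOX12 lay above it while SOX18 lay far below. For H3K9Ac the median was 13.1 over 11797 genes, with SOX12, SOX4, SOX9 and SOX13 above it and SOX18 again below. For H3K4me1 the median was 4.69 over 9892 genes, and here SOX18 was high and SOX9 (4.24) the lowest of the 5. SOX9 thus combined the highest H3K4me3 with the lowest H3K4me1 value, and SOX18 the reverse. These values are for whole intervals, and the H3K4me1 peak was 9941 bp wide at SOX9 and 2098 bp at SOX18. The part of the width in this order was not tested.

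**Figure D3:**
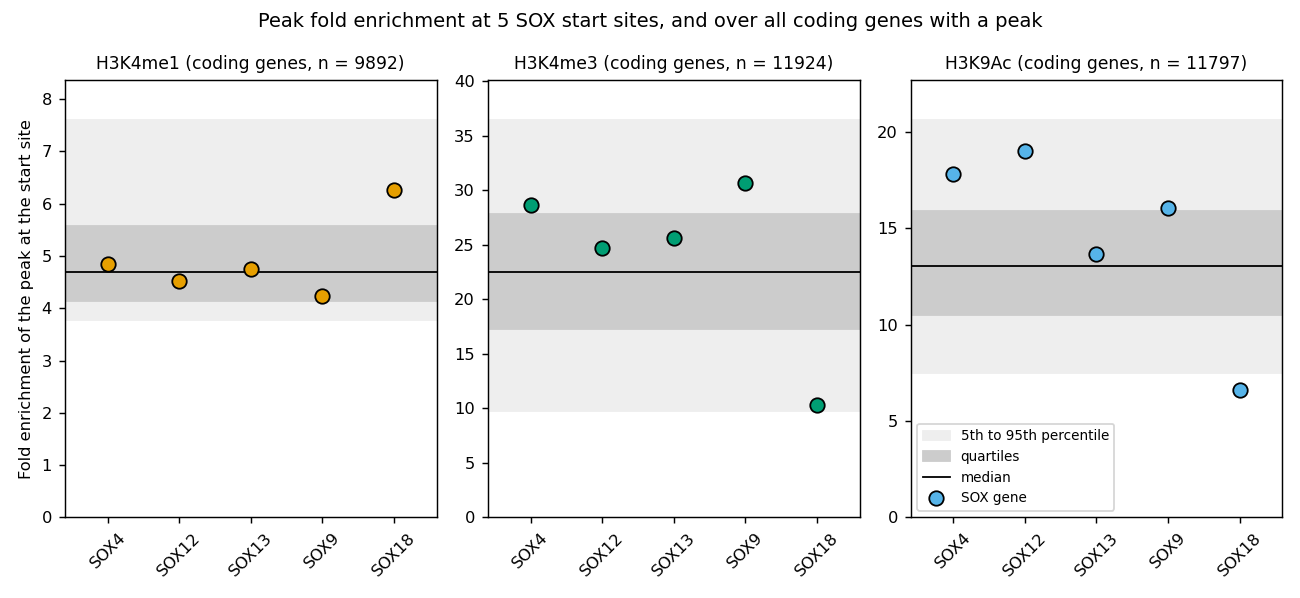
Fold enrichment of the H3K4me1, H3K4me3 and H3K9Ac peak at the TSS of the 5 marked SOX genes (points), with the median (line), quartiles (dark band) and 5th to 95th percentile (light band) of all coding genes that have such a peak. SOX18 lies at 10.3 for H3K4me3 and 6.60 for H3K9Ac, below the other SOX genes, and at 6.25 for H3K4me1, above them.

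Of the H3K4me1 peaks in the windows, 20 lay more than 1 kb from the TSS of the SOX gene, and 17 of these also lay more than 1 kb from the TSS of any other coding gene. These 17 are set beside the 23140 H3K4me1 peaks of the whole list chosen in the same way. A deposited H3K9Ac interval overlapped 12 of the 17 (70.6%), and 70.9% in the whole list. An H3K9Ac peak overlapped 3 (17.6%), beside 15.7%. One of the 3 was at C20orf204 near SOX18, one in the block upstream of SOX4, and one met the H3K9Ac peak of the SOX4 start itself. No annotated TSS of any gene fell within 13 of the 17 (76.5%), beside 82.2%. H3K4me1 without H3K9Ac, H3K4me3 or CTCF was seen at 5 of the 17, beside 5780 of the 23140, so the SOX windows were near the whole list in each of these shares. The 5 were a pair in intron 1 of SOX13, one downstream of SOX9 and a pair at SOX10.

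Neither of the long-domain marks gave a peak at any of the 10 genes. For H3K27me3 the windows held 8 deposited intervals with fold enrichments from 2.66 to 3.39, at SOX1, SOX2 and SOX9 (3 of 10, beside 36.5% of coding genes), and peaks were found in 4.97% of the windows of coding genes. Only 2.81% of the whole H3K27me3 list was past the limits. For H3K36me3 the windows held 10 deposited intervals with fold enrichments from 2.64 to 4.45, and peaks were found in 0.962% of the windows of coding genes. Deposited H3K36me3 intervals overlapped the bodies of SOX4, SOX9, SOX10, SOX12, SOX13 and SOX18 (6 of 10, beside 56.3% of coding genes). They covered at least 50% of the body at SOX4 (71.8%) and SOX9 (51.4%), a state found for 25.4% of coding genes. The 5 genes with a marked start were all among those with an H3K36me3 interval over the body, and the sixth was SOX10. The share among all coding genes with a marked start is not given here. The intervals at SOX10 also overlapped POLR2F, and those at SOX4, SOX9 and SOX12 overlapped long non-coding RNA genes of the opposite strand. The lists carry no strand, so the signals of such genes cannot be told apart. At SOX18 the interval over the body was 627 bp wide, with a −log10 q-value of 1.19.

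High CpG content around the TSS was found among both marked and unmarked SOX genes, and SOX4 and SOX10 had the lowest ratios. The ratio of observed to expected CpG was taken over 500 bp on either side of the TSS in hg19. Its median was 0.72 over all coding genes, 0.80 over those with an H3K4me3 peak at the TSS and 0.32 over those without. SOX1 (0.92), SOX11 (0.88) and SOX7 (0.86) had high ratios but no H3K4me3 peak. Among the 3806 coding genes with a ratio at least that of SOX7, 88.8% had an H3K4me3 peak. SOX4, conversely, had a peak with a ratio of 0.58, and among the 6582 coding genes with a ratio no higher, 11.3% had one. Both shares take in every gene beyond the ratio named, so they are not shares among genes with a ratio near it. SOX12 (0.97), SOX18 (0.84), SOX9 (0.79) and SOX13 (0.73) were marked, with SOX13 close to the median of all coding genes. Of the unmarked genes, SOX2 (0.74) was also close to that median and SOX10 (0.32) was far below it.

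**Figure D4:**
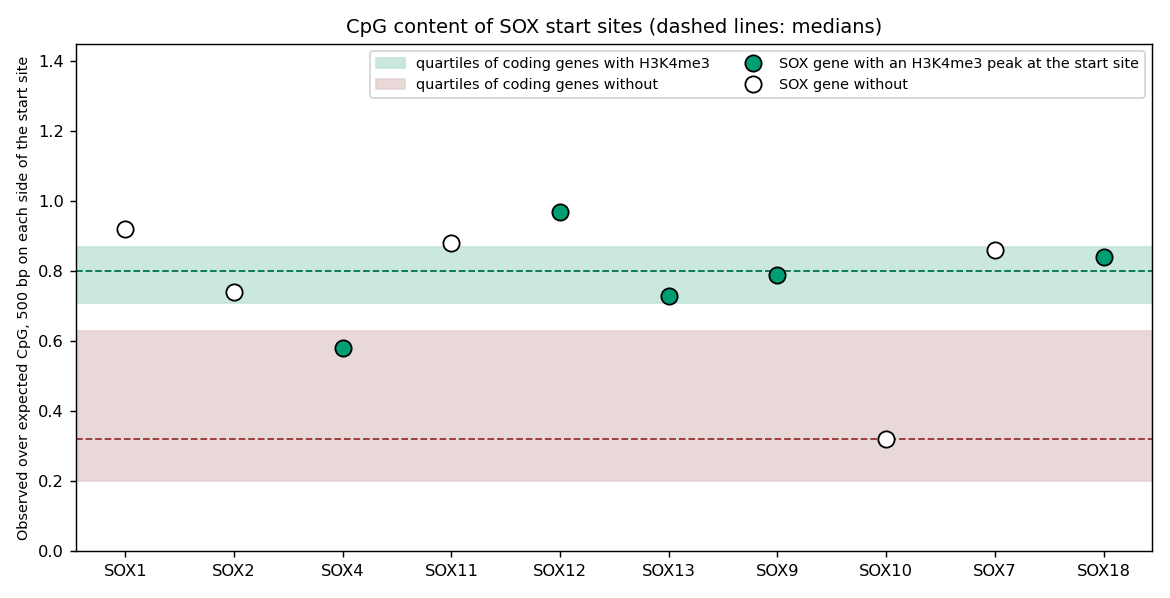
Ratio of observed to expected CpG within 500 bp of the TSS for each SOX gene, filled where an H3K4me3 peak lay at the TSS and open where none did. Bands are the quartiles, and dashed lines the medians, of coding genes with an H3K4me3 peak (0.80) and without (0.32). The open points of SOX1, SOX11 and SOX7 lie above the median of the marked genes, and the filled point of SOX4 lies in the band of the unmarked ones.

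The contrast can be read in the 200 bases before the TSS, shown in hg19 for an unmarked gene with a high CpG ratio and a marked one with a lower ratio. Every CpG is in capitals. SOX1 had 22 CpGs in chr13:112721263-112721462 and SOX4 had 8 in chr6:21593782-21593981, both on the plus strand.
SOX1: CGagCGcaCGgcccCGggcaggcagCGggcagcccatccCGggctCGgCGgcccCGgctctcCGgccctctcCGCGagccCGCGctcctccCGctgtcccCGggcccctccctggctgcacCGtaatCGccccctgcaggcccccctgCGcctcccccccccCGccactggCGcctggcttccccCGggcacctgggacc
SOX4: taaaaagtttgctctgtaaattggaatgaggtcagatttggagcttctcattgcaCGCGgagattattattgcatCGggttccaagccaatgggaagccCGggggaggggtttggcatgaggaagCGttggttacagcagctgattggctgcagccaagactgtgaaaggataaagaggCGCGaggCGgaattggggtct

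The same 200 bases were searched on both strands for 3 promoter strings. CCAAT, the letters of the CCAAT box bound by NF-Y, was present before 7 of the 10 SOX genes and before 30.2% of all coding genes. The 7 were SOX2, SOX4, SOX11, SOX12, SOX9, SOX7 and SOX18, of which 4 had a marked start and 3 did not. Over all coding genes the share was 31.0% with an H3K4me3 peak and 29.2% without. GGGCGG, the GC box, was also present before 7 of 10, all but SOX1, SOX4 and SOX10, beside 55.9% of coding genes. TATAAA was present before 0 of 10, beside 7.84% of coding genes. A match of so few letters is not a binding site, and these shares are descriptions.

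Positions are given for 3 of these genes, SOX2 and SOX11 with an unmarked start and SOX4 with a marked one. CCAAT was on the opposite strand, read as ATTGG, from −47 to −43 bp at SOX2, from −57 to −53 bp at SOX4 and from −74 to −70 bp at SOX11. SOX4 held it also from −10 to −6 bp and, on its own strand, from −114 to −110 bp, and a further one from −181 to −177 bp lies outside the bases shown. The last 120 bases before the TSS are shown with CCAAT or ATTGG in capitals. They are chr3:181429593-181429712 at SOX2, chr6:21593862-21593981 at SOX4 and chr2:5832396-5832515 at SOX11, all on the plus strand.
SOX2: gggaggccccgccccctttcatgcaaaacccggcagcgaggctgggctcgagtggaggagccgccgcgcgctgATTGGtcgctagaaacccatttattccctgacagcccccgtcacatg
SOX4: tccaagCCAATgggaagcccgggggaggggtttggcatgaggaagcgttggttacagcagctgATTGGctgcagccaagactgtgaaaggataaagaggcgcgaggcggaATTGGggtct
SOX11: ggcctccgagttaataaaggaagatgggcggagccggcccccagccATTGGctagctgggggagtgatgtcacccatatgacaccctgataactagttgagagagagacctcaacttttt

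CTCF peaks were searched on both strands for the CTCF core sequence, a consensus of 12 positions, some of which allow either of a pair of letters. An exact match to the consensus, which different strings can give, was found in 5 of the 10 CTCF peaks of the SOX windows and in 22.4% of the 24536 CTCF peaks of the list. With up to 1 mismatch it was in 9 of 10, beside 65.9%. The whole interval was searched, so a wider peak offers more places for a match. The 10 peaks were 687 to 2592 bp wide, beside a median of 739 bp in the list. The shares were not compared at like width. The exact cores lay at SOX2 (middle at −2220 bp), SOX12 (+5207 bp), SOX13 (+56101 bp) and SOX18 (+10931 and −20253 bp). They are shown with 20 bases on either side and the core in capitals, from chr3:181427468-181427519 on the plus strand at SOX2 and on the minus strand from chr20:311378-311429 at SOX12, chr1:204098319-204098370 at SOX13 and, in the above order, chr20:62670036-62670087 and chr20:62701220-62701271 at SOX18.
SOX2: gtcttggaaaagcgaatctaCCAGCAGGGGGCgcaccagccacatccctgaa
SOX12: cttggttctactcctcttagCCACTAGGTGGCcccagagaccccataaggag
SOX13: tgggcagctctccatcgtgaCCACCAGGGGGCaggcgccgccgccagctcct
SOX18 downstream: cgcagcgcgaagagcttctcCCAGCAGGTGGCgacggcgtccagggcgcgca
SOX18 upstream: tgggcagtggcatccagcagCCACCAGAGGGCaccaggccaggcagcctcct

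The CTCF peak upstream of SOX9 had the highest fold enrichment of the 10, 18.0, and was the only one without a core at up to 1 mismatch. Its counterpart upstream of SOX2, at nearly the same distance from the TSS and with a fold enrichment of 17.1, held an exact core. These letters not being in the interval says nothing further about CTCF there.

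Downstream of SOX2, 4 lists had a deposited interval over the same short stretch. The intervals of H3K4me3 (fold enrichment 4.95), H3K9Ac (4.45), H3K27me3 (3.22) and CTCF (5.55) all covered the 282 bp of chr3:181433222-181433503, which begin 998 bp after the end of the gene, within SOX2-OT. None of the 4 was past its limits. In the whole H3K4me3 list, 118 intervals that were not past the limits, or 3.51% of these, met intervals of the other 3 lists. The same share was 0.802% for H3K9Ac, 0.359% for H3K27me3 and 0.814% for CTCF. The stretch is shown because it opens with a run of 50 T, in capitals on the plus strand of hg19.
SOX2 downstream: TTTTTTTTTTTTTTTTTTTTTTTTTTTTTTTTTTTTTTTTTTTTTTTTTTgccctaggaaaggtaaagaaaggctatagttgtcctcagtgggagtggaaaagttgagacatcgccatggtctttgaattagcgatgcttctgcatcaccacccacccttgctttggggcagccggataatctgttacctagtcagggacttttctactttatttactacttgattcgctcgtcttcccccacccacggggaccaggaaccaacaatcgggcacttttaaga

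A run of at least 20 A or at least 20 T was found in 28.8% of those 118 H3K4me3 intervals, in 5.92% of the other 3245 intervals that were not past the limits and in 6.84% of the H3K4me3 peaks. For CTCF the shares were 14.5%, 2.87% and 3.62% in the same order. The median widths in that order were 574, 611 and 1914 bp for H3K4me3 and 815, 507 and 739 bp for CTCF. A wider interval has more room for a run, and the shares were not compared at like width. The part of such runs in the SOX2 intervals was not tested.

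Among the 9 SOX genes outside these 10 that were examined (SOX3, SOX5, SOX6, SOX8, SOX14, SOX15, SOX17, SOX21 and SOX30), SOX8 was the only one with an H3K4me1, H3K4me3 or H3K9Ac peak at the TSS (1 of 9, beside 49.1%, 59.1% and 58.5% of coding genes). SOX8, a group E gene like SOX9 and SOX10, had H3K4me3 with a fold enrichment of 16.4, H3K9Ac with 9.61 and H3K4me1 with 6.13. Its H3K4me3 value was lower than that of SOX9 (30.6) and higher than that of SOX18 (10.3). Deposited H3K27me3 intervals that were not past the limits lay at the TSS of SOX6, SOX8 and SOX14 among the 9. Of all coding genes, 9.60% had a deposited H3K27me3 interval within 1 kb of the TSS. SOX6 and SOX14 had no H3K4me3 interval there.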

How the data were processed

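Chromatin of HCT116 cells was sheared in PIXUL, a 96-well sonicator, and immunoprecipitated, with 1 library per antibody. Per the study's methods the authors used BWA 0.7.12 for alignment to hg19 and MACS2 in broad mode (cutoff 0.1) for peak calling, library by library and against an input. The submitters' processing notes list MACS 1.4.2, SAMtools 0.1.19 and bcl2fastq 2.20.0.442, and which MACS release made the lists is not settled by these sources. Molecular identifiers allowed PCR duplicates to be recognised. The fold enrichment that the authors deposited is a linear ratio for the whole interval, and so are the deposited −log10 values of p and q. No limits are stated for CTCF by name, and those for the remaining marks were used.

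Intervals were intersected with GENCODE 44 on hg19 (overlap of at least 1 bp). The canonical transcript gave the TSS for 19881 of 20162 coding genes and the 5′ end of the gene for the others. Counts for coding genes were checked against bedtools 2.31.1 (0 differed), and counting was tested on simulated data with planted overlaps. Percentiles of fold enrichment and width were computed within a list. Sequences were read from the hg19 genome with samtools 1.23.1 and pyfaidx 0.9.0.4, and Python 3.11.15, numpy 2.4.6, pandas 2.3.3 and matplotlib 3.10.9 were used. The SOX genes and the lists of other SOX genes and markers were chosen with earlier results of these data known, and the promoter strings and the search for A and T runs were chosen after the intervals had been seen. All 10 SOX genes are described, and neighbouring genes are named where a peak of the window overlapped their start, with some others named to place an interval. The alternatives were other limits, other TSS windows, other flanks and a mismatch in the core sequence. With 1 library per antibody no test between samples was run.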

Additional observations from a re-analysis of the deposited data

How the results depend on the processing

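Of 135 counts recomputed under other settings, 100 stayed within 1.5 times the reported one and 35 moved. A count of 0 could not rise under stricter limits or a narrower window, so part of the 100 was fixed in advance. The 5 genes with H3K4me3 at the TSS were the same in every setting. With all deposited intervals, the windows held 24 H3K9Ac, 8 H3K27me3, 10 H3K36me3 and 19 CTCF intervals. H3K27me3 was then in 3 windows and H3K36me3 in 6, and H3K27me3, CTCF and the pair of H3K4me3 with H3K27me3 were each at 1 TSS, that of SOX9. At a q-value limit of 0.01 and a fold limit of 2 in every list, there were 22 H3K9Ac, 3 H3K27me3, 6 H3K36me3 and 19 CTCF intervals. H3K27me3 was in 3 windows, H3K36me3 in 4 and CTCF at 1 TSS. With each list under the limits meant for the other marks, H3K4me1 was left at 0 TSSs and in 3 windows with 7 intervals. Under the same limits there were 16 H3K9Ac, 4 H3K36me3 (in 4 windows) and 16 CTCF intervals, with CTCF at 1 TSS. Within 2.5 kb of the TSS, CTCF peaks were at 2 genes, SOX2 and SOX9. Over the gene body alone there were 12 H3K4me1, 5 H3K4me3, 5 H3K9Ac and 1 CTCF peaks, the last at 1 gene. With 50 kb on either side there were 41 H3K4me1 and 16 H3K9Ac peaks and 1 H3K27me3 peak, at 1 gene. With 1 mismatch allowed, 9 CTCF peaks held the core. These changes follow from the settings themselves. With the fold limit raised 1.5 times, no count moved, and SOX18 lost its H3K9Ac peak. Counts of 0 could not change there. The H3K4me1 counts could not either, since the lowest H3K4me1 peak of the windows, at 3.53, was above the raised limit. No paired analysis was possible because each antibody has 1 library. Unknown depth limits all absences, most of all for H3K27me3 and H3K36me3, whose lists were nearly all under the limits.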
